A study of Mus musculus with 11 samples.

Results

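The genes described here carry cholesterol and other lipids between cells, in lipoproteins and across membranes. They are the apolipoproteins Apoc1, Apoe and Apod, the plasma transfer protein Pltp, the receptors Vldlr, Lrp1 and Scarb1, and the transporters Abca1 and Abcg1, taken as a list by gene symbol and measured with the microarray probes annotated to them. Of the 9 genes listed, 8 had an annotated probe, out of 19057 genes with a probe in all. Apod was not analysed here. Each gene was followed through its brightest probe, with its other probes as a check, and 7 of the 8 genes had a group mean above the background of the arrays in at least 1 group. Abca1 did not.

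Lipoproteins are particles of lipid wrapped in apolipoproteins, which act as ligands for receptors and as helpers or inhibitors of the enzymes that work on the particles. Receptors such as Vldlr and Lrp1 take up particles that carry apoE, whereas Abca1 and Abcg1 pump cholesterol out of the cell onto acceptors. Fat cells are among the largest stores of unesterified cholesterol in the body and make apoE themselves.

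The cells were 3T3-L1, mouse fibroblasts of an established line that turn into fat cells under adipogenic medium. There were 2 arrays of the double knock-down, in which shRNAs against both Tmem120a and Tmem120b had been introduced with lentiviruses, 2 of the Tmem120b knock-down, 2 of the Tmem120a knock-down, 3 of control adipocytes with a non-target shRNA, and 2 of undifferentiated preadipocytes at day 0, which carried the non-target shRNA as well. The 4 differentiated groups had been induced with 0.5 mM IBMX, which blocks phosphodiesterases, 1 µM rosiglitazone, 1 µM dexamethasone and 0.5 µM insulin, later only with insulin and rosiglitazone, and were collected on day 9 by the labels but on day 6 by the series description and the methods, which the files do not settle. The lines were described as stably carrying their shRNAs. The methods describe the arrays of each analysis as at least 2 biological replicates. No source used here says how many independent lines a group stands for. The p-values therefore cover the array-to-array spread alone, which may be partly technical. The encoded membrane proteins of the nuclear envelope were studied for their part in adipogenesis, and the comparisons ask which transcripts change on differentiation and which of them depend on Tmem120a, Tmem120b or both.

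All values below are quantile-normalised log2 signals. A gene was called when its adjusted p from limma (Benjamini-Hochberg over all 45281 probes) was 0.05 or less and its log2 change was at least 0.5 in size. A log2 signal of 6.87, set from the values themselves, was taken as background. The targeted genes were measured first. Tmem120a was called lower in the double knock-down (log2 change −1.12) and the Tmem120a knock-down (−1.33) and lay at −0.02 in the Tmem120b knock-down, all against control adipocytes. Tmem120b was called lower in the double knock-down (−1.62) and the Tmem120b knock-down (−2.07) and lay at 0.17 in the Tmem120a knock-down. Of 9 adipocyte markers with a probe, 8 were called higher in control adipocytes than in preadipocytes, where 11.9% of all genes were. The summed linear signal of those 9 markers was 40775 to 45228 in the double knock-down, 38956 to 41701 in the Tmem120b knock-down and 51739 to 54210 in the Tmem120a knock-down, against 41206 to 45036 in control adipocytes. A linear sum leans on the brightest markers. Against control adipocytes 1 of the 9 was called lower in the double knock-down, and 1 higher and 1 lower in each single knock-down. Over all genes 7.25% were called in the double, 7.87% in the Tmem120b and 3.15% in the Tmem120a knock-down. The median log2 changes of the 9 markers were −0.09 in the double, −0.25 in the Tmem120b and 0.23 in the Tmem120a knock-down. Of 6 preadipocyte and fibroblast markers, 2 were called higher in the double knock-down and 3 in the Tmem120b knock-down. Of all 19057 genes, 627 and 729 were called higher there. The sum of the 6 markers was 36213 to 36770 in the double and 33927 to 37111 in the Tmem120b knock-down. It was 25966 to 32568 in control adipocytes and 38819 to 39310 in preadipocytes. On differentiation, where 23% of all genes were called, 1 of these 6 was called higher and 2 lower, with a list median of −0.06. Of 6 macrophage markers, 3 were above background in some group. Adgre1, Ptprc and Itgam lay at background, and Lyz2 was called higher by 0.87 in the double knock-down and by 0.54 in the Tmem120b knock-down. The sum of the 6 was 930 to 1002 in the double, 848 to 854 in the Tmem120b and 856 to 907 in the Tmem120a knock-down. It was 753 to 782 in control adipocytes and 818 to 823 in preadipocytes. Hepatocyte and endothelial markers lay at or near background. The part of these shifts in the results below was not tested, and in bulk RNA fewer cells of a type and less RNA per cell cannot be told apart. Before normalisation the 6 knock-down arrays had median signals of 6.58 to 6.7, below the 6.75 to 7.10 of the other 5.

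Promoter sequences were in RefSeq's table (build GRCm38.p6) for 6 of the 9 listed genes. The 250 bases before the start are shown for the 3 of them that were called in at least 1 comparison, and for Apoc4, the gene beside Apoc1 that was called in several. Capitals mark matches, on either strand, to the letters searched. These were the nuclear receptor half-site AGGTCA and its variant GGGTCA, the direct repeats AGGTCANAGGTCA (spacing of 1) and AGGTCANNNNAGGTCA (spacing of 4), which contain the half-site, the C/EBP-type motif TTGCNNAA, the CCAAT box, the GC box GGGCGG, the TATA box TATAAA and the glucocorticoid receptor half-site AGAACA. The strand given is that of the gene and each sequence reads 5′ to 3′ towards the start. Vldlr has 2 starts in the table and Apoe has 3, of which the most upstream was used.
Vldlr promoter, chr19:27216234-27216483, plus strand: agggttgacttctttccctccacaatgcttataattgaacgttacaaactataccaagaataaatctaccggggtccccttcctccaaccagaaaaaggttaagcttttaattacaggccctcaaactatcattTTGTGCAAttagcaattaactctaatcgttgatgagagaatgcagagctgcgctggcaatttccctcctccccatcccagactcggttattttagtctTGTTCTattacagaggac
Apoe promoter, chr7:19699189-19699438, minus strand: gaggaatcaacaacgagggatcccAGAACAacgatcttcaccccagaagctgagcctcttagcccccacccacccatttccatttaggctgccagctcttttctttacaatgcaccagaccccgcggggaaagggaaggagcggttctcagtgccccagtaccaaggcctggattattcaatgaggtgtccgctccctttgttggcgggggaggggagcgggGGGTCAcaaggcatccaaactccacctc
Pltp promoter, chr2:164857709-164857958, minus strand: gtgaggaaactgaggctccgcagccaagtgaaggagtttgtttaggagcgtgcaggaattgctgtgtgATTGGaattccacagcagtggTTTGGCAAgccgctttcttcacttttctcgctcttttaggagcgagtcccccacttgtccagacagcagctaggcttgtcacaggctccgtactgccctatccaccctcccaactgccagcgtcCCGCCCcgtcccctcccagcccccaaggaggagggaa
Apoc4 promoter, chr7:19681461-19681710, minus strand: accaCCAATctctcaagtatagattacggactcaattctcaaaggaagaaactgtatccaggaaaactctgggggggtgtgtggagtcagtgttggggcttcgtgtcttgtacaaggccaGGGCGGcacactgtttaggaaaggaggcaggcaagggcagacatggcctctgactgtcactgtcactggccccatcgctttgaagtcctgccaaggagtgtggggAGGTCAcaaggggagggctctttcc
The Vldlr window held the C/EBP-type motif and the glucocorticoid receptor half-site, and the Apoe window the GGGTCA half-site and the glucocorticoid receptor half-site. The Pltp window held the C/EBP-type motif, a CCAAT box and a GC box, and the Apoc4 window the AGGTCA half-site, a CCAAT box and a GC box. Among 32851 promoter windows of that length, the AGGTCA half-site was found in 14%, the GGGTCA variant in 11.6%, the C/EBP-type motif in 9.56%, the CCAAT box in 33.8%, the GC box in 32.7%, the TATA box in 12.4% and the glucocorticoid receptor half-site in 16.1%, while the repeats with spacings of 1 and 4 were found in 0.0335% and 0.0152%. A match of letters is a description and not a binding site.

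Differentiation raised 4 of the 8 genes, namely Apoc1, Apoe, Vldlr and Scarb1, and lowered none. Over all genes 23% were called in this comparison and 11.9% were called higher. The median log2 change of the 8 genes was 0.48, against 0.00 for all genes tested. The remaining 4, Pltp, Lrp1, Abca1 and Abcg1, were not called. The plot of every array shows the level of each gene in the 5 groups.

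**Figure D1:**
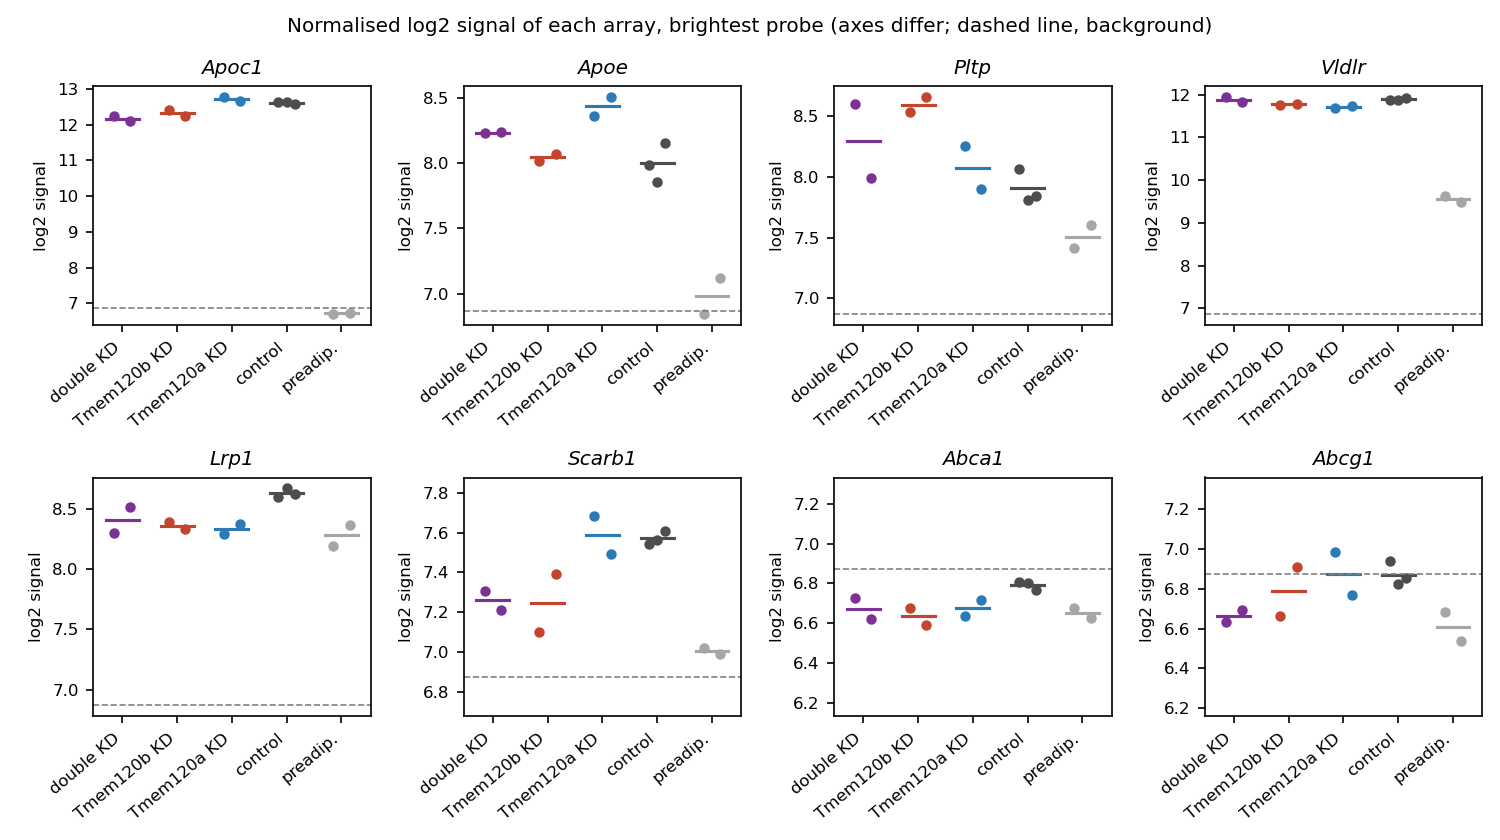
Quantile-normalised log2 signal (vertical axis, scaled for each gene) of the brightest probe of 8 genes in the double knock-down, Tmem120b knock-down, Tmem120a knock-down, control adipocytes and preadipocytes. Points are single arrays, bars are group means and the dashed line is the background at 6.87. Apoc1 and Vldlr stand far above preadipocytes in all 4 differentiated groups, and Abca1 stays below the dashed line on all 11 arrays.

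Apoc1 codes for a small exchangeable apolipoprotein that slows lipoprotein lipase and the binding of particles to receptors. Its signal was 12.64, 12.65 and 12.58 in control adipocytes, against 6.71 and 6.72 in preadipocytes. The preadipocyte arrays lay below background, so that only a lower limit can be given, and control adipocytes were at least 53.8-fold higher (fitted log2 change 5.91 ± 0.070 SE, adjusted p = 2.55e-14, limma). A second Apoc1 probe gave 11.81, 11.89 and 11.84 in control adipocytes, against 6.74 and 6.75 in preadipocytes, which is at least 31.4-fold higher (adjusted p = 7.62e-13, limma). Both probes put the gene at background before differentiation and among the clearly measured transcripts after it.

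Apoe codes for apolipoprotein E, the ligand through which remnant particles bind receptors such as Vldlr and Lrp1. The single Apoe probe read 7.98, 7.86 and 8.15 in control adipocytes, against 6.85 and 7.12 in preadipocytes. The groups did not overlap, and 1 of the 2 preadipocyte arrays was below background. The log2 change was 1.01 ± 0.093 (SE), or 2.02-fold higher (adjusted p = 1.61e-06, limma). Near background a fold change is understated. Pltp, which moves phospholipids between particles, read 8.07, 7.81 and 7.85 in control adipocytes, against 7.41 and 7.60 in preadipocytes, a log2 change of 0.40 ± 0.15 (SE) that did not pass the test (adjusted p = 0.0811, limma) although the arrays did not overlap. With the arrays shifted to a common median in place of quantile normalisation, the change in Pltp was 0.72 and was called (adjusted p = 0.0383, limma).

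Vldlr, the receptor that binds apoE-bearing, triglyceride-rich particles, read 11.88, 11.87 and 11.92 in control adipocytes, against 9.63 and 9.50 in preadipocytes. Control adipocytes were 5.02-fold higher (log2 change 2.33 ± 0.060 SE, adjusted p = 9.24e-12, limma), and in both groups the arrays were well above background. Vldlr had 6 probes. The next brightest pair gave log2 changes of 2.55 and 2.42, and a dimmer probe gave 0.72, all called higher. The remaining pair lay near or below background and gave 0.40 and 0.03, neither called. Scarb1, the receptor for selective uptake of cholesteryl ester from HDL, read 7.54, 7.56 and 7.61 in control adipocytes, against 7.02 and 6.99 in preadipocytes, with no overlap and a 1.48-fold higher mean (log2 change 0.57 ± 0.084 SE, adjusted p = 1.25e-04, limma). Its second probe lay below background in every group. Lrp1, an endocytic receptor for apoE-bearing remnants and many other ligands, read 8.60, 8.67 and 8.62 in control adipocytes, against 8.19 and 8.37 in preadipocytes. The 1.27-fold difference passed the p threshold (adjusted p = 0.0025, limma) but its log2 change of 0.35 ± 0.075 (SE) was under the fold threshold. Shifted to a common median only, it was 0.75 and was called (adjusted p = 3.96e-04, limma).

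**Figure D2:**
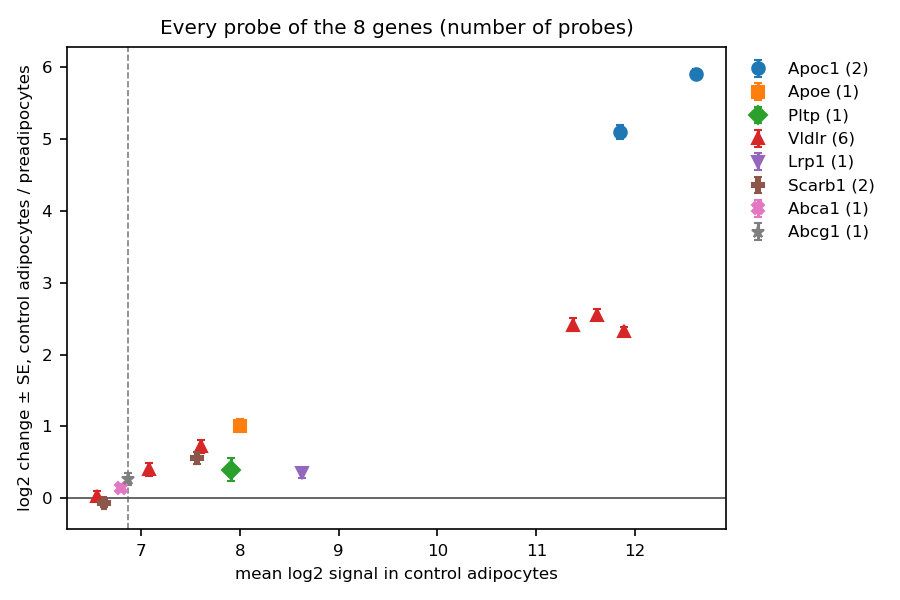
Log2 change of control adipocytes over preadipocytes with its standard error (vertical axis) against mean log2 signal in control adipocytes (horizontal axis) for every probe of the 8 genes, the dashed line being the background at 6.87. Both Apoc1 probes and the 3 brightest Vldlr probes show large changes, while the Vldlr probes near the dashed line show little.

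The exporters were at the limit of the arrays. Abca1, which loads cholesterol and phospholipid onto lipid-poor apoA-I, read 6.81 at the highest and 6.59 at the lowest over all 11 arrays, so that it was not above background in any group and no fold is given. Abcg1, which exports cholesterol to HDL, read 6.82 to 6.94 in control adipocytes, against 6.54 and 6.68 in preadipocytes, with no overlap. Its log2 change of 0.26 passed the p threshold (adjusted p = 0.035, limma) and not the fold threshold, so it was not called. The highest group mean of Abcg1, 6.88 in the Tmem120a knock-down, was barely above background. So close to background, the size of a change in either gene could not be measured.

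The Tmem120a knock-down called none of the 8 genes against control adipocytes, where 3.15% of all genes were called, and their median log2 change was 0.01, as over all genes. The Tmem120b knock-down called 1, Pltp, where 7.87% of all genes were called and 3.83% were called higher. The double knock-down called none, where 7.25% of all genes were called. Median log2 changes of the 8 genes were −0.16 in the double knock-down and −0.14 in the Tmem120b knock-down, against 0.02 for all genes in both. A single call among 8 genes is no result about the group. All 3 comparisons share the control arrays.

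Pltp read 8.60 and 7.99 in the double knock-down, 8.53 and 8.66 in the Tmem120b knock-down and 8.25 and 7.90 in the Tmem120a knock-down, against 8.07, 7.81 and 7.85 in control adipocytes. Both Tmem120b knock-down arrays were above every control array, while the double knock-down arrays were far apart, 1 above and 1 within the control range. Against control adipocytes Pltp rose 1.61-fold on loss of Tmem120b (log2 change 0.69 ± 0.15 SE, adjusted p = 0.00815, limma). The change was 0.39 in the double knock-down (adjusted p = 0.141) and 0.17 in the Tmem120a knock-down (adjusted p = 0.636), neither called. The rise rested on few arrays. Without Tmem120b knock-down replicate 2 it was 0.62 and no longer called (adjusted p = 0.0807, limma), and without double knock-down replicate 2 the double knock-down's change was 0.70 and called (adjusted p = 0.00419, limma). With arrays shifted to a common median only, the Pltp difference was 0.25 in the Tmem120b knock-down, not called (adjusted p = 0.502, limma).

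Apoc1 read 12.25 and 12.10 in the double knock-down, 12.41 and 12.23 in the Tmem120b knock-down and 12.78 and 12.65 in the Tmem120a knock-down, against 12.64, 12.65 and 12.58 in control adipocytes. Every double and Tmem120b knock-down array was below every control array, and both Tmem120a knock-down arrays were at or above the controls. Ordered by mean, the Tmem120a knock-down (12.72 ± 0.092, SD, n = 2) stood first, then control adipocytes (12.62 ± 0.038, n = 3), the Tmem120b knock-down (12.32 ± 0.13, n = 2) and the double knock-down (12.17 ± 0.11, n = 2). The first neighbours in that order differed by 0.10 (adjusted p = 0.53) and the last by −0.15 (adjusted p = 0.635, limma), neither passing the test. The changes against control adipocytes were −0.45 ± 0.070 (SE) in the double knock-down (adjusted p = 7.33e-04, limma) and, with the Tmem120b shRNA alone, −0.30 ± 0.070 (adjusted p = 0.0108), to 73.4% and 81.3% of the control level, and both were under the fold threshold.

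The second Apoc1 probe placed the same differences past the threshold. It read 11.22 and 11.32 in the double knock-down, 11.44 and 11.02 in the Tmem120b knock-down and 11.97 and 11.84 in the Tmem120a knock-down, against 11.81, 11.89 and 11.84 in control adipocytes. On that probe Apoc1 fell by 0.58 on the log2 scale in the double knock-down (adjusted p = 0.00113, limma) and, in the Tmem120b knock-down, by 0.61 (adjusted p = 6.89e-04), with a change of 0.06 in the Tmem120a knock-down (adjusted p = 0.813). The call for Apoc1 in these comparisons therefore depends on which probe is read. Without double knock-down replicate 1 the change on the brightest probe was −0.52 in the double knock-down, past the fold threshold. With a median shift only that probe was called in the double (−0.71) and the Tmem120b knock-down (−0.63). That setting called 154 genes higher and 1597 lower in the double knock-down, and 156 and 2515 in the Tmem120b knock-down.

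Apoe read 8.23 and 8.24 in the double knock-down, 8.02 and 8.07 in the Tmem120b knock-down and 8.36 and 8.51 in the Tmem120a knock-down, against 7.98, 7.86 and 8.15 in control adipocytes. Arrays of the Tmem120a knock-down and the double knock-down lay above all controls, and those of the Tmem120b knock-down lay among them. The Tmem120a knock-down was 1.35-fold higher, a log2 change of 0.44 ± 0.093 (SE) that passed the p threshold (adjusted p = 0.0113, limma) and not the fold threshold. Without control replicate 3, or without Tmem120a knock-down replicate 1, the change was 0.51 and was called. It was −0.03 with a median shift only (adjusted p = 0.885, limma). Changes were 0.23 in the double knock-down and 0.05 in the Tmem120b knock-down, neither called.

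**Figure D3:**
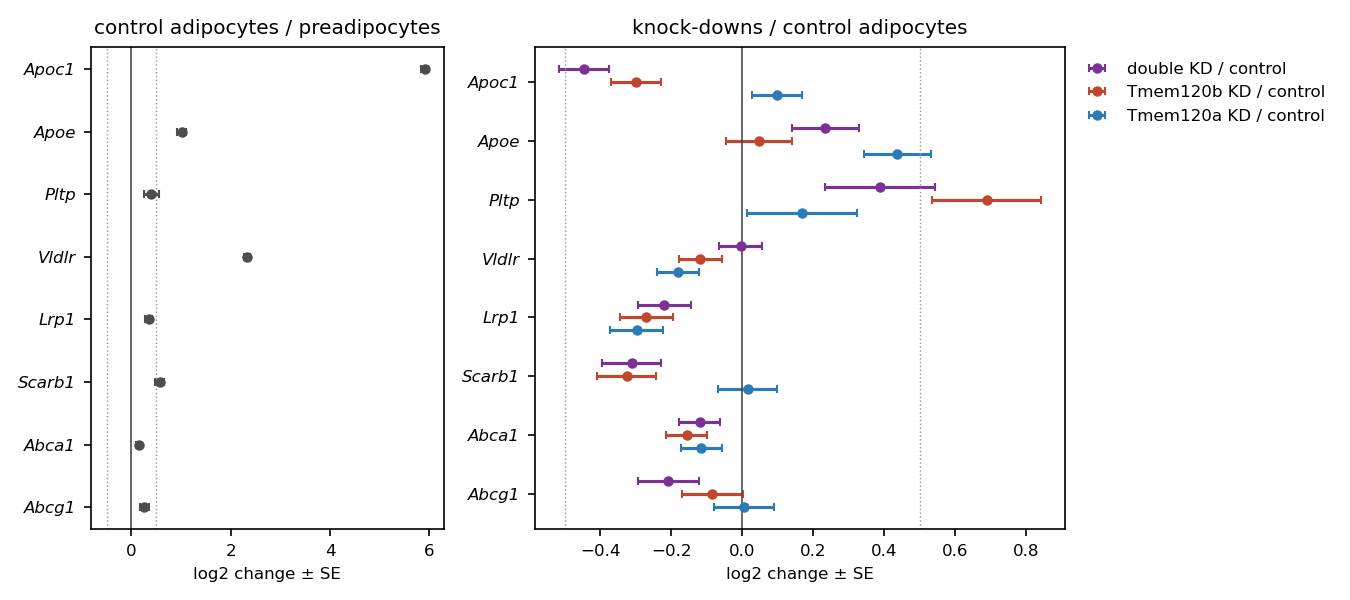
Log2 change with its standard error of 8 genes, left for control adipocytes over preadipocytes and right for the double, Tmem120b and Tmem120a knock-downs over control adipocytes, with dotted lines at the fold threshold of 0.5. On the left Apoc1 and Vldlr are largest, and on the right only Pltp in the Tmem120b knock-down lies past a dotted line.

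None of the 3 receptors was called in a knock-down. Vldlr read 11.95 and 11.82 in the double knock-down, 11.76 and 11.78 in the Tmem120b knock-down and 11.69 and 11.72 in the Tmem120a knock-down, against 11.88, 11.87 and 11.92 in control adipocytes. The changes were −0.01 in the double knock-down, −0.12 in the Tmem120b knock-down and −0.18 in the Tmem120a knock-down, none called. Scarb1 read 7.31 and 7.21 in the double knock-down, 7.10 and 7.39 in the Tmem120b knock-down and 7.68 and 7.49 in the Tmem120a knock-down, against 7.54, 7.56 and 7.61 in control adipocytes. In the double and Tmem120b knock-downs every array was below the controls, by −0.31 and −0.33 on average (adjusted p = 0.0239 and 0.018, limma), both under the fold threshold. Lrp1 read 8.30 and 8.52 in the double knock-down, 8.39 and 8.33 in the Tmem120b knock-down and 8.29 and 8.38 in the Tmem120a knock-down, against 8.60, 8.67 and 8.62 in control adipocytes. All 6 knock-down arrays were below all control arrays, with changes of −0.22, −0.27 and −0.30 in the double, Tmem120b and Tmem120a knock-downs (adjusted p = 0.0746, 0.0266 and 0.0271, limma), none called.

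The receptor calls depended on the normalisation. With the arrays shifted to a common median only, Lrp1 was called lower in all 3 knock-downs (−0.55 in the double knock-down, −0.74 in the Tmem120b knock-down and −0.80 in the Tmem120a knock-down), Scarb1 was called lower in the double knock-down (−0.56) and the Tmem120b knock-down (−0.63), and Vldlr was called lower in the Tmem120a knock-down (−0.63). Under that setting 154 genes were called higher and 1597 lower in the double knock-down, against 627 and 755 with quantile normalisation. For the Tmem120b knock-down these counts were 156 and 2515, against 729 and 770, and for the Tmem120a knock-down 7 and 2626, against 158 and 442. Abca1 and Abcg1 were not called in any knock-down under either setting.

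Set against each other, only the double and the Tmem120a knock-down differed by a called gene on its brightest probe, which was Apoc1. Apoc1 was lower in the double knock-down than in the Tmem120a knock-down, to 68.6% of its level (log2 change −0.54 ± 0.077 SE, adjusted p = 7.86e-04, limma), and was the 1 called gene of the 8, where 4.87% of all genes were called and 2.13% were called lower. The second probe gave −0.64 (adjusted p = 0.00224, limma). On the brightest probe the change dropped under the fold threshold without Tmem120a knock-down replicate 1 (−0.48) or without double knock-down replicate 2 (−0.47), and was −0.38 and not called with a median shift only (adjusted p = 0.134, limma). Between the double and the Tmem120b knock-down none of the 8 was called, where 0.199% of all genes were. For the Tmem120a knock-down over the Tmem120b knock-down, where 6.42% of all genes were called, none of the 8 was called on its brightest probe. The differences there were 0.40 for Apoc1 (adjusted p = 0.00502), 0.39 for Apoe (adjusted p = 0.029), 0.34 for Scarb1 (adjusted p = 0.0324) and −0.52 for Pltp (adjusted p = 0.0798, limma), and the second Apoc1 probe gave 0.67 and was called (adjusted p = 0.00114). Pltp was called in that comparison when either double knock-down array was left out (−0.52, adjusted p = 0.0109), and without double knock-down replicate 2 it was called higher in the double than in the Tmem120a knock-down (0.53, adjusted p = 0.0478). None of the 8 departed from additivity, meaning that the double knock-down's change differed from the 2 single changes added together, where 2.48% of all genes did. Those values ran from −0.47 for Pltp (adjusted p = 0.406) to 0.35 for Lrp1 (adjusted p = 0.146, limma). Without double knock-down replicate 1 the value for Pltp was −0.78 and was called (adjusted p = 0.0293), and with a median shift only Lrp1 (0.99) and Vldlr (0.84) were called.

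Apoe and Apoc1 lie in a cluster with Apoc4 and Apoc2, in that order in RefSeq's gene table. Apoc4, a minor apolipoprotein of triglyceride-rich particles, read 8.82, 8.89 and 8.74 in control adipocytes, against at most 6.52 on both preadipocyte arrays, at least 3.85-fold higher (fitted log2 change 2.30, adjusted p = 9.25e-10, limma). Its knock-down arrays read 8.53 and 8.54 in the double knock-down, 8.28 and 7.85 in the Tmem120b knock-down and 9.43 and 9.37 in the Tmem120a knock-down. Neither single knock-down overlapped the controls, and they lay on opposite sides of them. Against control adipocytes Apoc4 fell by 0.75 in the Tmem120b knock-down (adjusted p = 1.55e-04, limma), rose by 0.58 in the Tmem120a knock-down (adjusted p = 0.00255) and stood at −0.28 in the double knock-down, not called. The Tmem120a knock-down was 2.52-fold above the Tmem120b knock-down (log2 change 1.33, adjusted p = 7.55e-06, limma), and the double knock-down was below the Tmem120a knock-down by −0.86 (adjusted p = 3.1e-04). With a median shift only the rise in the Tmem120a knock-down was 0.05 and not called. The fall in the Tmem120b knock-down was −1.22 and called, in a setting that called 156 genes higher and 2515 lower there. Apoc2, the activator of lipoprotein lipase, read 7.31, 7.23 and 7.18 in control adipocytes, against 7.02 and 6.82 in preadipocytes, and was not called in any comparison. Of the 4 neighbours, Apoc4 was the one called in both single knock-downs.

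**Figure D4:**
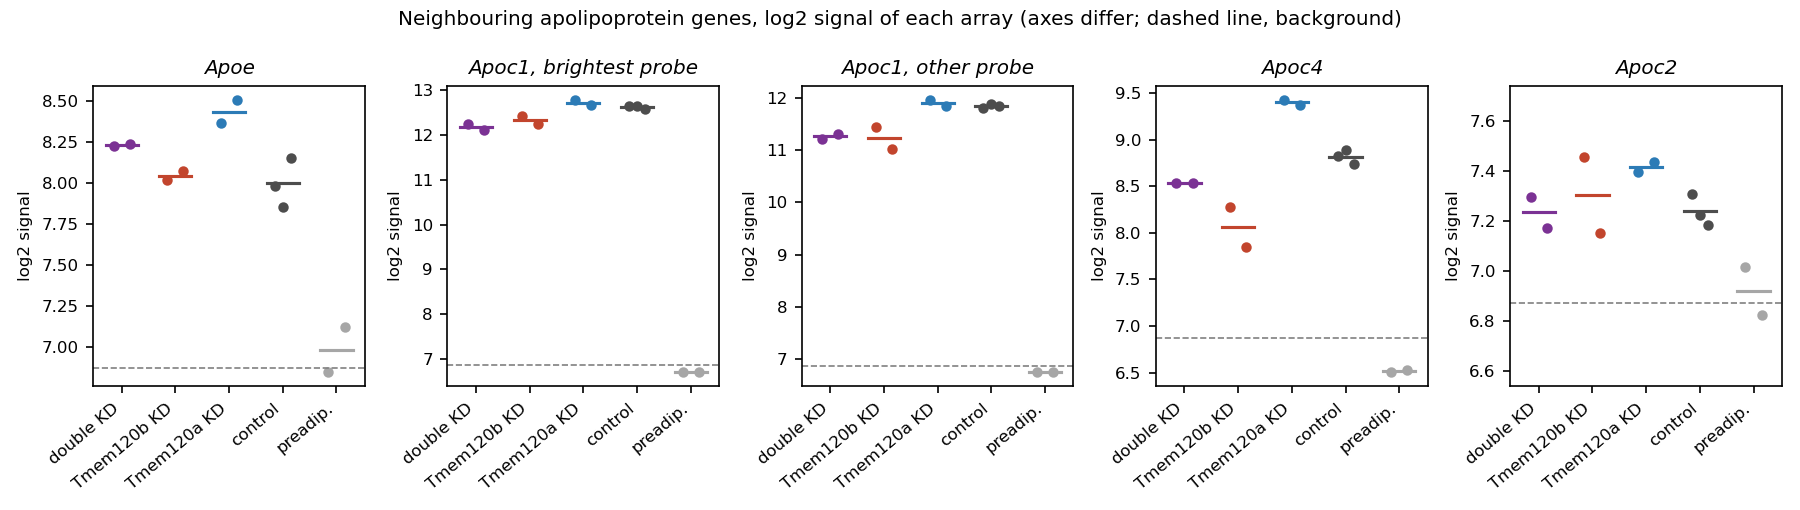
Quantile-normalised log2 signal (vertical axis, scaled for each panel) of the neighbouring genes Apoe, Apoc1 (both probes), Apoc4 and Apoc2 in the double, Tmem120b and Tmem120a knock-downs, control adipocytes and preadipocytes. Points are arrays, bars are group means and the dashed line is the background. Apoc4 is highest in the Tmem120a knock-down and, among the differentiated groups, lowest in the Tmem120b knock-down.

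Of the other 12 apolipoprotein genes listed, 11 had a probe and 5 were above background in some group. Apoc4 and Apoc3, an inhibitor of lipoprotein lipase, were the 2 called higher on differentiation, where 11.9% of all genes were, Apoc3 at least 1.80-fold. A count of 2 among 11 is no result about the list. Their median log2 change was 0.05. The classical apolipoproteins of liver and gut, Apoa1 and Apoa2, lay at background in control adipocytes and preadipocytes.

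Of 8 measured genes in the list of LXR factors and partners, nuclear receptors for oxysterols and genes linked to them, 5 were called higher in control adipocytes than in preadipocytes, where 11.9% of all genes were, with a list median of 0.69. Nr1h3, which codes for LXR alpha, read 10.07, 10.03 and 10.01 in control adipocytes, against 6.75 and 6.90 in preadipocytes, 9.24-fold higher (adjusted p = 7.62e-13, limma), a fold that is understated since 1 of the 2 preadipocyte arrays and their mean lay below background. Srebf1, the lipogenic transcription factor, rose 2.48-fold, Lpcat3, a phospholipid acyltransferase, 2.82-fold and Rxra, the partner receptor of LXR, 1.71-fold. In the knock-downs Nr1h3 was not called against control adipocytes, but it was lower by 0.71 log2 units in the double knock-down than in the Tmem120a knock-down (adjusted p = 4.61e-05, limma), a call lost with a median shift only (adjusted p = 0.0912). It was higher by 0.66 in the Tmem120a knock-down than in the Tmem120b knock-down (adjusted p = 4.56e-05, limma), and this was called with a median shift too (0.60, adjusted p = 0.0421). The 1 call of this list in a knock-down was Lpcat3, higher by 0.56 in the Tmem120a knock-down (adjusted p = 1.18e-04). Its other probe gave −0.40 there, not called, and was called lower in the double knock-down (−0.99) and the Tmem120b knock-down (−1.24), so the direction for Lpcat3 depends on the probe. With a median shift only the brightest probe gave 0.12, not called.

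Among 17 measured lipoprotein receptors, lipases and helpers, 9 were called higher and 1 lower on differentiation, where 23% of all genes were called, with a list median of 0.60. Sort1, a sorting receptor that also binds lipoprotein lipase, read 12.40, 12.45 and 12.43 in control adipocytes, against 7.37 and 7.28 in preadipocytes, 34.3-fold higher (adjusted p = 4.42e-13, limma). Lpl, the lipase that frees fatty acids from triglyceride-rich particles, was 8.97-fold higher and its inhibitor Angptl4 4.65-fold higher. The Lpl signal of 14.37 in control adipocytes was close to the highest on the arrays, 14.6. Lrp8, the apoE receptor 2, was called lower, by at least 2.71-fold, since it was at background in control adipocytes. In the knock-downs Gpihbp1, which anchors Lpl to capillary walls, was called higher by 0.71 in the double knock-down (adjusted p = 2.64e-04, limma) and by 0.66 in the Tmem120b one (adjusted p = 4.11e-04), at signals of 7.35 to 7.61 against 6.67 to 6.90 in control adipocytes, near background. Cd36, the fatty acid translocase, was called lower in the Tmem120b knock-down, by at least 1.32-fold, since its arrays were below background there (adjusted p = 5.43e-05). That call was lost without control replicate 1 or Tmem120b knock-down replicate 1 (−0.49 each). No gene of this list was called in the Tmem120a knock-down against control adipocytes.

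Most of the calls of these lists in the knock-downs fell in the list of sterol handling inside the cell. It was also the largest list, the others having 17, 11 and 8 measured genes. Of 21 measured genes for intracellular sterol transport, ester storage and oxysterol enzymes, 8 were called higher and 2 lower on differentiation, where 23% of all genes were called, with a list median of 0.38. The largest statistics belonged to Gramd1b, an ER sterol transfer protein (log2 change 3.33, 10.0-fold), Scp2, sterol carrier protein 2 (2.30), Lipa, the lysosomal acid lipase (2.00), and Osbpl2, an oxysterol-binding protein relative (1.08). Against control adipocytes 1 gene of the list was called higher and 5 lower in the double knock-down, 1 higher and 5 lower in the Tmem120b knock-down, and 1 higher and 2 lower in the Tmem120a knock-down. Over all genes 7.25%, 7.87% and 3.15% were called in these comparisons. The list medians were −0.11, 0.00 and −0.02.

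Npc2, the soluble lysosomal protein that hands cholesterol to Npc1, read 9.81 and 10.01 in the double knock-down, 10.17 and 10.08 in the Tmem120b knock-down and 10.19 and 10.25 in the Tmem120a knock-down, against 10.95, 10.93 and 10.93 in control adipocytes. All 6 knock-down arrays were below the controls. Those of the single knock-downs were near the 10.27 and 10.23 of the preadipocytes, and both double knock-down arrays were below the preadipocytes. Npc2 fell to 49.1% of the control level in the double knock-down (log2 change −1.03, adjusted p = 4.57e-07, limma), to 57.2% in the Tmem120b knock-down (−0.81, adjusted p = 3e-06) and to 61% in the Tmem120a knock-down (−0.71, adjusted p = 2.25e-05). Osbpl8, an oxysterol-binding protein relative of the ER, was called lower in all 3 (−0.74, −0.73 and −0.51 in the double, Tmem120b and Tmem120a knock-downs), though in the Tmem120a knock-down not without control replicate 3 or Tmem120a knock-down replicate 2 (−0.41 without that knock-down array). Osbp, the oxysterol-binding protein, was called lower in the double (−0.63) and Tmem120b (−0.71) knock-downs, and Gramd1b likewise (−0.61 and −0.82), while a second bright Gramd1b probe gave −0.46 and −0.34, under the fold threshold. Without double knock-down replicate 1 the Gramd1b change in that group was −0.37 and the Npc1 change −0.42, neither called. Npc1, named after its values were seen, was called lower in the double (−0.68) and Tmem120b (−0.83) knock-downs on its brightest probe, but of its other 2 probes above background 1 gave −0.52 and −0.44 and the other 0.17 and 0.12, so the Npc1 fall is not carried by every probe. Nceh1, an ester hydrolase that was lower in control adipocytes than in preadipocytes, was called higher in the double (0.85) and Tmem120b (0.75) knock-downs and was not called with a median shift only. The 3 falls of Npc2 were called with a median shift too, at −1.32, −1.25 and −1.22 in the double, Tmem120b and Tmem120a knock-downs. That setting called 154 genes higher and 1597 lower in the double knock-down. In the Tmem120b knock-down it called 156 and 2515, and in the Tmem120a knock-down 7 and 2626. A fall that keeps its call there is therefore weak support. Scp2 was called higher in the Tmem120a knock-down (0.64, adjusted p = 3.24e-04, limma), where 1 of its other bright probes gave 0.70 and another 0.00, and its value there was 0.16 with a median shift only. The other probes of Osbp, Osbpl8 and Nceh1 lay at or near background.

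**Figure D5:**
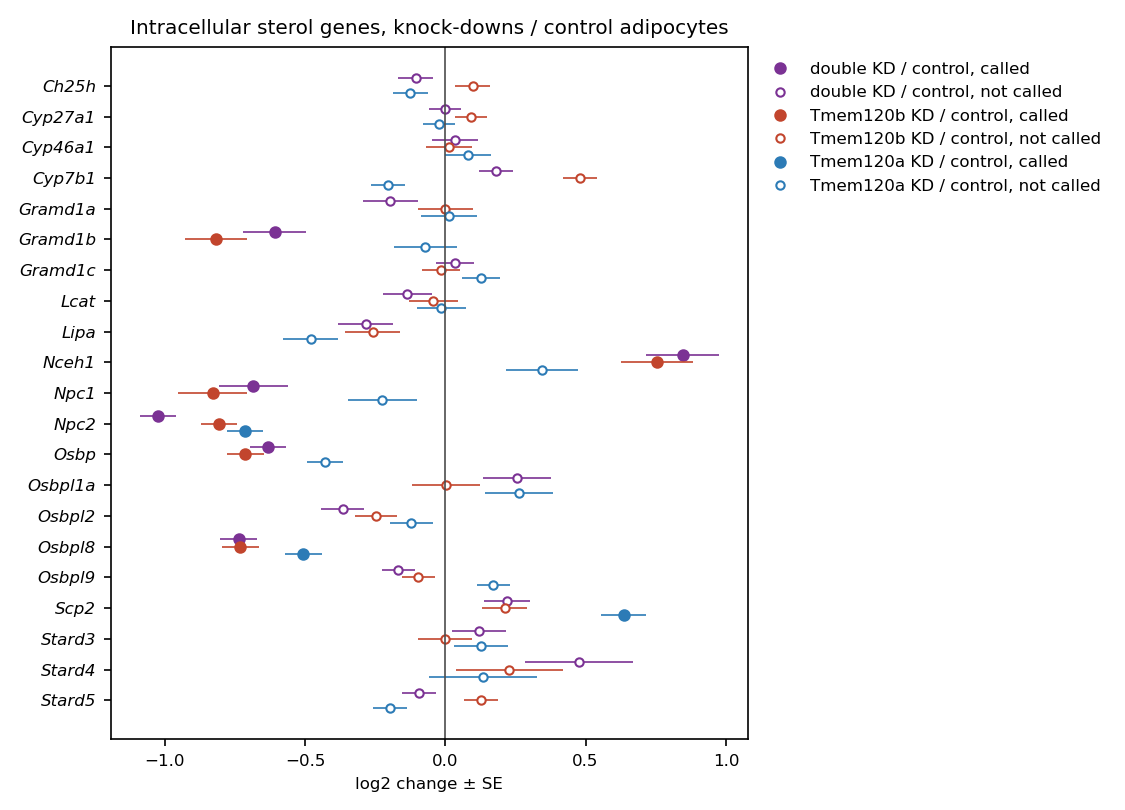
Log2 change with its standard error (horizontal axis) of 21 intracellular sterol genes in the double, Tmem120b and Tmem120a knock-downs over control adipocytes, filled points being called genes. Npc2 and Osbpl8 lie to the left in all 3 knock-downs and Nceh1 to the right in the double and Tmem120b knock-downs.

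The genes whose profile over the 11 arrays was most like each called gene were found by Pearson correlation over 10721 genes above background. This is a description only. For Apoc1, Vldlr and Apoe it is dominated by the step from preadipocytes to differentiated cells. In Scarb1 and Pltp differences among the differentiated arrays weigh as well. For Apoc1 they were Hsd11b1 (r = 0.999), Dgat2 (0.998) and S100a1 (0.997). For Vldlr they were Gprc5b (0.998), Tenm4 (0.997) and Enpp5 (0.995), for Apoe Lpcat3 (0.987), Taldo1 (0.985) and Rtl8c (0.984), and for Scarb1 Alg2 (0.984), Klhl7 (0.975) and Fbxo3 (0.972). For Pltp they were Plppr2 (0.976), Tns4 (0.962) and Gsn (0.957).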

How the data were processed

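Total RNA of 11 samples of 3T3-L1 cells was hybridised, 1 array each, to Illumina MouseWG-6 v2 BeadChips. The authors deposited log2 signals not normalised between arrays and, in the table used here, log2 signals after quantile normalisation over all 11 arrays with limma in R (its version not given in the sources used here). How beads were summarised, whether background was subtracted, detection calls and chip positions are unknown here. With limma 3.58.1 in R 4.3.3 a linear model of 5 group means was fitted to all arrays (6 residual degrees of freedom, prior 6.15) after a low-signal filter at log2 6.5 in at least 1 array, which removed 0 of 45281 probes. Benjamini-Hochberg adjustment ran over all probes. Each gene was read from its brightest probe. Of the probes, 34885 carried 1 symbol, 18 several and 10378 none, by GEO's platform annotation. Background was set after the values were seen, at the mode (6.66) plus 3 times the spread below it (0.0722), and 39% of probes lay above it. A gene at background on every array of a group has only a lower limit of its fold change. The number of arrays limits the precision, with a median residual SD of 0.0728. Between replicates r was 0.994 to 0.998 over probes.

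Whether the replicate numbers of the labels pair the arrays was not settled. Deviations of same-numbered arrays from their group means correlated at −0.123 to 0.208. In a group of 2 arrays the deviations mirror each other, so between 2 such groups both numbers give the same value. The genes, lists, comparisons and alternatives were chosen with earlier results of these data known. The text names all listed genes, both targets, of each other list and comparison called genes with the largest statistic (4 at most) and the 3 most similar profiles. Npc1, Apoc2, Apoa1, Apoa2 and the genes of lost or changed calls were named besides, after their values were seen. Some listed genes are not reported here, and Apod, Clu, Nr1h2, Arl4c, Lipc, Soat1, Soat2, Cfd, Ly6a and Cd68 were not analysed here.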

Additional observations from a re-analysis of the deposited data

Results flagged for a closer look

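Nr1h3, Osbp, Osbpl8 and Scp2, genes of the sterol lists, departed from additivity, so that the double knock-down did not equal the 2 single changes added together, by the test of that difference (limma). None of the 8 genes the report is about did so. The departure was −0.543 for Nr1h3 (adjusted p = 0.00725), whose change in the double knock-down lay below the sum. Cd36 gave 0.55 (adjusted p = 0.00656), but all 6 of its knock-down arrays were below background, so that the value amounts to the height of the controls above background, has its sign fixed by that and is no measured departure. The departure was 0.51 for Osbp (adjusted p = 0.0136), and 0.5 for Osbpl8 (adjusted p = 0.0158), a value at the fold threshold. It was −0.627 for Scp2 (adjusted p = 0.0153). With a median shift in place of quantile normalisation, Scp2 gave −0.10 and Nr1h3 0.14, neither called. Osbp gave 1.13 (adjusted p = 0.0226, limma) and Osbpl8 1.05 (adjusted p = 0.0145, limma), both called. Under that setting 99.7% of all genes called for additivity were higher. The call for Nr1h3 was lost without Tmem120b knock-down replicate 1 (−0.48), and that for Scp2 without the same array (−0.48) or Tmem120a knock-down replicate 2 (−0.57). Osbp lost its call, at 0.47 to 0.5, without control replicate 1, Tmem120a knock-down replicate 1, Tmem120b knock-down replicate 2 or double knock-down replicate 2, and Osbpl8, at 0.41 to 0.5, without control replicate 1 or 3, Tmem120a or Tmem120b knock-down replicate 2 or double knock-down replicate 1.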

How the results depend on the processing

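The rises of Apoc1, Apoe, Vldlr and Scarb1 on differentiation were called on their brightest probe under every alternative run, except Scarb1 (0.57) at a log2 threshold of 1. With a median shift only, genes called numbered 2633 in the Tmem120a knock-down, 2671 in the Tmem120b knock-down, 504 for double over Tmem120a, 0 for double over Tmem120b, 574 for Tmem120a over Tmem120b and 1714 for additivity, with an all-gene median of 0.11 in the last. Of the 8 genes it called 2, 3 and 3 in the Tmem120a, Tmem120b and double knock-downs, 0 for double over Tmem120a and 2 for additivity, and the additivity value of Nr1h3 turned to 0.14, uncalled. The cause was not tested. Called genes were then 90.1% higher for double over Tmem120a, against 56.4% in the main setting, 29.1% for Tmem120a over Tmem120b, against 42.9%, 99.7% for additivity, against 67.4%, and 74.1% for differentiation, against 51.8%.

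Fitting only the groups compared called 2 genes for double over Tmem120b (38 in the main setting) and 1 of the 8 genes for Tmem120a over Tmem120b, as did a prior following the signal. The moderated F over all 5 groups, the statistic the methods name, tests for any difference among the groups and not 1 contrast; read with the fold threshold it gave 26 genes higher and 59 lower for double over Tmem120b, against 9 and 29, and called Pltp for Tmem120a over Tmem120b (−0.52, adjusted p = 0.00167, limma). The replicate block called 1 of the 8 genes, Apoe (0.51), in the Tmem120a knock-down and changed no other call among them. Only control adipocytes have a replicate 3, so the block fits that array by itself. Its log2 changes therefore equal those without control replicate 3, and the 2 settings are not separate checks of the changes. In the other lists only genes called in the main setting were followed, so that gains were not looked for. There the block took the call from Osbpl8 in the Tmem120a knock-down (−0.50) and for additivity (0.49). It also took the call from Scp2 for additivity (−0.60, adjusted p = 0.057, limma) and from Stard3 on differentiation (0.42). The block gave 629 genes in the Tmem120a, 1511 in the Tmem120b and 1410 in the double knock-down. Crossing the numbers gave 1218 genes for Tmem120a over Tmem120b. A log2 threshold of 1 called 2071 genes on differentiation, 106, 304 and 294 in the Tmem120a, Tmem120b and double knock-downs, 96, 5 and 163 between knock-downs in the order above, 81 for additivity, and 0 of the 8 genes for the Tmem120b knock-down and for double over Tmem120a. Without a fold threshold the counts were 6895, 2034, 3854, 3675, 2276, 75 and 2807, with 2, 4 and 2 of the 8 in the Tmem120a, Tmem120b and double knock-downs, 2 for double over Tmem120a and 3 for Tmem120a over Tmem120b.

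Leaving out each array in turn gave 4376 to 4419 genes on differentiation, 578 to 635, 1499 to 1548 and 1380 to 1547 in the Tmem120a, Tmem120b and double knock-downs, 852 to 1091, 20 to 281 and 1179 to 1364 between knock-downs and 361 to 841 for additivity. Both 281 and 841 were reached without double knock-down replicate 1. Of the 8 genes, 4 were called on differentiation each time, 0 for double over Tmem120b, and 0 to 1 elsewhere. For single genes, 2363 values kept their call and direction, 69 lost the call and 27 gained it. Of the rest, 49 uncalled values changed sign and 1 called value did. These values cover the 8 genes and, from the other lists, only genes called in the same comparison in the main setting. Such list genes could lose a call but not gain one, so losses and gains cannot be set against each other.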
